A study of Pinellia ternata with 12 samples.

Results

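Heat shock factors and the coactivator MBF1c were followed in leaves of Pinellia ternata, a medicinal aroid, through 3 of the 208217 unigenes in the deposited table. The 3 unigenes are TRINITY_DN52050_c0_g5, named heat stress transcription factor B-2c, TRINITY_DN50195_c2_g1, placed in the heat shock factor family, and TRINITY_DN53970_c3_g2, named multiprotein-bridging factor 1c. They were chosen because their levels in heat and control leaves were already known to differ, so that contrast is described for them and not tested. Their levels in single heat libraries were known too and are likewise only described. A unigene is a transcript cluster assembled from reads without a genome, and its name is that of the closest Swiss-Prot protein. The name of TRINITY_DN50195_c2_g1 was the exception, since it came from the study's grouping of transcription factors by family alone.

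Leaf RNA was sequenced in 3 heat libraries, from seedlings kept at 40 ℃ for 24 h (day 1), and in 3 control libraries, from seedlings at 25 ℃ with 0 h of heat (day 0). All seedlings were grown from tubers under the same light. A library's group rests on its title, source and day, because a treatment tag in the labels reads heat-treated for all 6. The heat leaves were also collected 24 h later than the control leaves, and temperature and time cannot be told apart. Levels are given in TPM, a share of each library's total that is corrected for transcript length, from which the number of reads behind a value cannot be read. In such bulk samples, fewer cells of a type and less RNA per cell cannot be told apart. The names at hand covered 309 unigenes that the study had picked as higher under heat, and none of them marks leaf tissue, so the tissue label could not be checked.

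Heat shock factors are transcription factors that bind heat shock elements in the promoters of chaperone genes. In plants, class A factors carry an activation domain, whereas class B factors lack it and several act as repressors of the heat response in Arabidopsis. MBF1 proteins bridge transcription factors and the TATA-binding protein, and MBF1c is the heat-inducible form in Arabidopsis, where it contributes to thermotolerance. The products of the genes under heat shock factors include the small heat shock proteins, which hold unfolding proteins, and ClpB, HSP70 and DnaJ chaperones, which dissolve aggregates and refold them.

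The 20-base primers that the study designed for TRINITY_DN50195_c2_g1 are shown because they are the only sequences at hand for a unigene named by its family alone, and 11 of the 20 bases of each are G or C.
TRINITY_DN50195_c2_g1 forward primer: gcaacttctccagcttcgtc
TRINITY_DN50195_c2_g1 reverse primer: gtggccgctgttattacgac

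All 3 unigenes were low to moderate in control leaves and higher in every heat library. The heat stress factor B-2c, TRINITY_DN52050_c0_g5, had 12.7, 4.14 and 8.15 TPM in heat replicates 1 to 3, against 0.907, 0.790 and 1.27 TPM in control replicates 1 to 3. The groups did not overlap, the control libraries lay close together, and the highest heat library was replicate 1 and the lowest replicate 2. The means were 8.34 ± 4.29 TPM in heat leaves and 0.990 ± 0.253 TPM in control leaves (SD, n = 3 each), a ratio of 8.42 and a log2 fold change of 2.13 on log2(TPM + 1).

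The heat shock factor family unigene TRINITY_DN50195_c2_g1 had 3.08, 6.86 and 10.5 TPM in heat replicates 1 to 3, against 1.27, 0.977 and 0.453 TPM in control replicates 1 to 3. Here too the groups did not overlap, but the order of the heat libraries differed from that of B-2c, with replicate 1 the lowest and replicate 3 the highest. Means of 6.81 ± 3.71 TPM in heat leaves and 0.900 ± 0.413 TPM in control leaves (SD, n = 3 each) gave a ratio of 7.57 and a log2 fold change of 1.94.

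The coactivator MBF1c, TRINITY_DN53970_c3_g2, had 126, 93.6 and 116 TPM in heat replicates 1 to 3, against 15.3, 14.4 and 10.3 TPM in control replicates 1 to 3. It was the most abundant of the 3 in both groups and the one whose heat libraries were most alike relative to their mean. It averaged 112 ± 16.6 TPM in heat leaves and 13.3 ± 2.67 TPM in control leaves (SD, n = 3 each), with a ratio of 8.41 and a log2 fold change of 2.99. The ratio of TPM means was thus close to that of B-2c, while the log2 fold change was larger, because the added 1 TPM damps the change of a unigene that is near 1 TPM in control leaves. For all 3 together, every heat library lay above every control library, a state that 15199 of the 68978 unigenes tested, or 22%, shared.

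**Figure D1:**
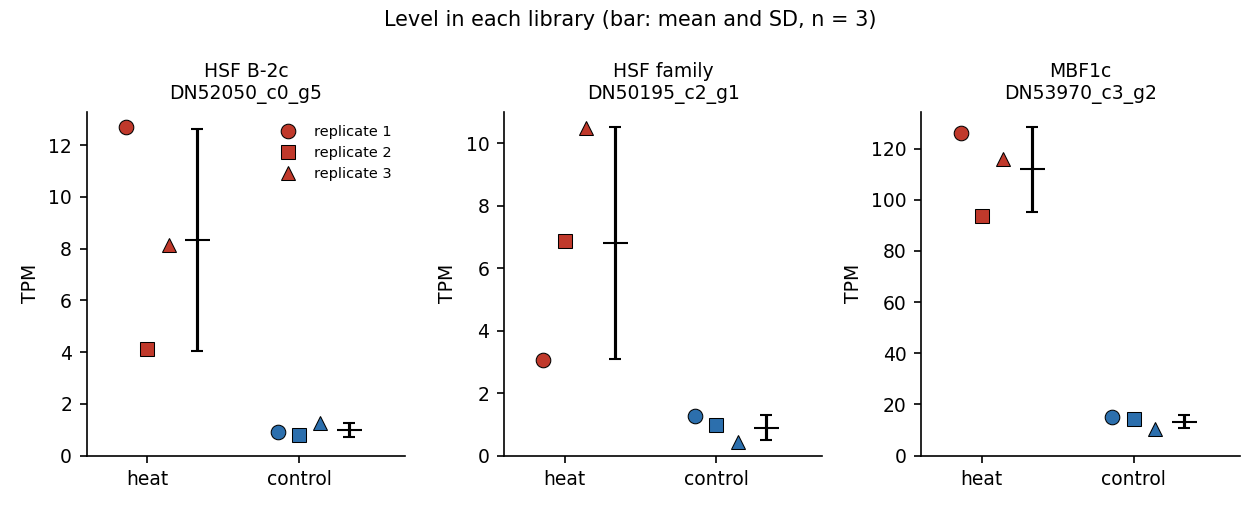
TPM (vertical axis, linear, from 0) of the B-2c, heat shock factor family and MBF1c unigenes in each of 3 heat and 3 control libraries, with one marker shape per replicate number and bars for the mean and SD. The heat libraries lie above the control libraries in each panel, and the B-2c unigene is highest in heat replicate 1 (12.7 TPM) where the family unigene is lowest (3.08 TPM).

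Their place among all unigenes moved accordingly. MBF1c was above 99.5% to 99.6% of all unigenes in the heat libraries and above 94.2% to 96.0% in the control libraries. The B-2c unigene was above 86.3% to 94.8% of them in heat leaves and above 65.1% to 73.2% in control leaves. The family unigene was above 82.5% to 93.4% in heat leaves and above 55.0% to 71.4% in control leaves. Both heat shock factors thus stayed well below the coactivator, whose lowest heat library (93.6 TPM) exceeded the highest of either factor.

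The assembler split the transcripts into components, and unigenes of one component can share reads. The B-2c unigene made up 45.5%, 31.3% and 38.0% of the summed TPM of its component in heat replicates 1 to 3, against 13.0%, 13.6% and 13.2% in control replicates 1 to 3. Its share was therefore higher in every heat library, and in the control libraries it was nearly constant. The component held 5 unigenes, 4 of which reached a mean of 1 TPM over the 6 libraries, and its summed TPM was 27.9, 13.2 and 21.5 in heat libraries and 6.99, 5.81 and 9.69 in control libraries. The log2 fold change of that sum was 1.33, smaller than the 2.13 of the B-2c unigene alone.

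The other unigenes of the B-2c component carried no name in the annotation at hand. TRINITY_DN52050_c0_g2 had 8.50, 6.60 and 7.23 TPM in heat libraries and 3.85, 2.01 and 4.98 TPM in control libraries, and did not pass the test (log2 fold change 0.92 ± 0.31 SE, limma adjusted p = 0.0807). TRINITY_DN52050_c0_g3 had 2.81, 1.77 and 3.45 TPM in heat libraries and 2.24, 2.28 and 2.89 TPM in control libraries, overlapping ranges with a log2 fold change of 0.06 (limma adjusted p = 0.911). The sign of this near-zero value turned under median ratio rescaling, under quantile normalization and without heat replicate 3. TRINITY_DN52050_c0_g4 had 3.89, 0.730 and 2.47 TPM in heat libraries and 0, 0.348 and 0.553 TPM in control libraries. Its log2 fold change of 1.27 did not pass (limma adjusted p = 0.0737), and without heat replicate 2 it was 1.69 and passed (adjusted p = 0.0350). The order of the heat libraries of c0_g4, replicate 1 highest and replicate 2 lowest, was that of the B-2c unigene.

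In the component of MBF1c, a second unigene was higher under heat too. MBF1c made up 69.8%, 66.2% and 74.9% of its summed TPM in heat libraries and 65.5%, 59.5% and 70.9% in control libraries, ranges that overlap. Its companion TRINITY_DN53970_c3_g1, unnamed in the annotation at hand, had 54.5, 47.6 and 38.7 TPM in heat libraries and 8.05, 9.31 and 3.92 TPM in control libraries. This unigene was higher under heat by 2.62 ± 0.31 SE on the log2 scale (limma adjusted p = 0.00111). The ratio of the companion to MBF1c was 0.433, 0.508 and 0.333 in heat libraries, against 0.527, 0.648 and 0.381 in control libraries, so both groups overlapped in it. TRINITY_DN50195_c2_g1 was the only unigene of its component. Among the component companions of B-2c and MBF1c, 1 of the 4 tested was called higher and 0 lower, and 2 more fell under the filter. Over all unigenes tested, 6.0% were called higher and 4.05% lower.

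**Figure D2:**
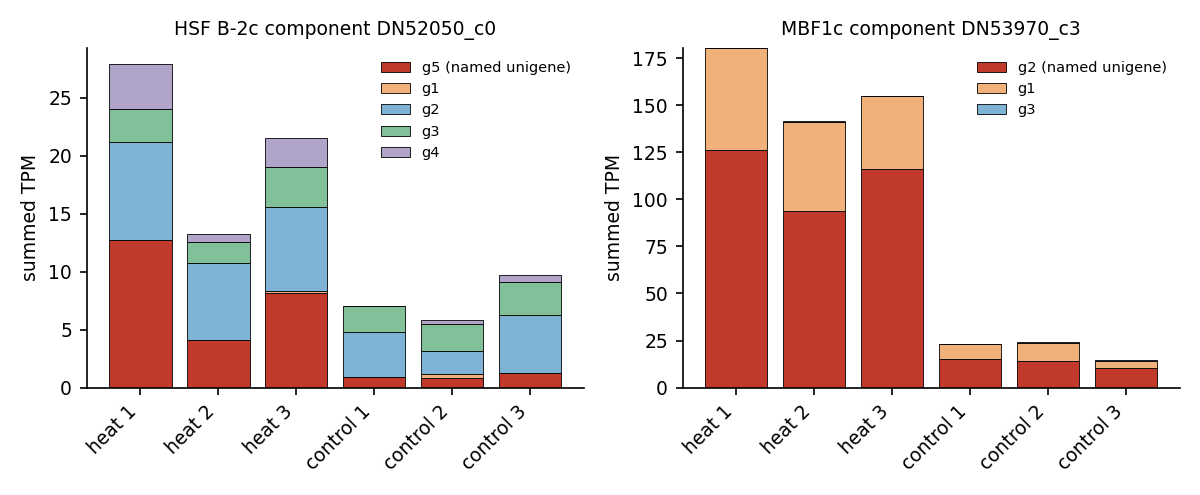
Summed TPM (vertical axis, linear, from 0) of the unigenes in the components of B-2c (left) and MBF1c (right), for heat replicates 1 to 3 and then control replicates 1 to 3, with one colour per unigene. The named unigene of the B-2c component fills 31.3% to 45.5% of a heat bar and 13.0% to 13.6% of a control bar, whereas MBF1c fills 59.5% to 74.9% of every bar of its own component.

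The annotation at hand named 5 further unigenes of these families, which the study had picked as higher on these same libraries, so that their counts are not independent evidence of direction. A heat shock factor that fell could not appear among these names. The study itself describes heat shock factor genes that changed in opposite directions under heat. Of the 5, 4 were called higher and 0 lower, with a median log2 fold change of 1.52, beside a median of 0.17 and 6.0% called higher over all unigenes tested. The heat stress factor A-2b, a class A factor whose relatives prolong the heat response in Arabidopsis, is represented by TRINITY_DN56759_c0_g3. It had 26.4, 18.6 and 19.5 TPM in heat libraries and 7.30, 7.77 and 5.46 TPM in control libraries, and rose by 1.52 ± 0.26 SE on the log2 scale (limma adjusted p = 0.00652). A-2b was thus above each of the class B unigenes on average in both groups.

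Further unigenes also bore the name B-2c. TRINITY_DN67348_c1_g4 had 16.5, 3.45 and 2.89 TPM in heat libraries and 1.39, 0.871 and 0.269 TPM in control libraries, with a log2 fold change of 1.91 ± 0.53 SE (limma adjusted p = 0.0455). This call is near the threshold: the adjusted p was 0.0724, 0.101 and 0.155 without control replicates 1, 2 and 3 and 0.0660 without heat replicate 2, it was also lost under 4 other settings, and the sum over its component had a log2 fold change of 0.41 (adjusted p = 0.516). TRINITY_DN68161_c2_g1 had 17.2, 3.73 and 3.98 TPM in heat libraries and 1.30, 0.631 and 4.28 TPM in control libraries. It did not pass (log2 fold change 1.48 ± 0.56 SE, limma adjusted p = 0.119), and control replicate 3 was above heat replicates 2 and 3. The sum over its component passed (1.78, adjusted p = 0.0219). Both had their highest level in heat replicate 1, as did TRINITY_DN52050_c0_g5.

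MBF1b, a relative of MBF1c in the same coactivator family, was named for a pair of unigenes of one component. TRINITY_DN55643_c0_g1 had 86.3, 128 and 157 TPM in heat libraries and 43.2, 34.1 and 28.4 TPM in control libraries, and rose by 1.76 ± 0.28 SE on the log2 scale (limma adjusted p = 0.00538). TRINITY_DN55643_c0_g2 had 195, 189 and 204 TPM in heat libraries and 105, 108 and 80.6 TPM in control libraries, and rose by 1.00 ± 0.23 SE (limma adjusted p = 0.0246). This second call lies on the fold threshold. It was lost with adjusted p of 0.0747, 0.0615 and 0.0778 without control replicates 1, 2 and 3, with 0.0563 and 0.0877 without heat replicates 2 and 3, and under 4 other settings.

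Ranked by mean TPM, MBF1b stood above MBF1c in control leaves: TRINITY_DN55643_c0_g2 averaged 97.9 TPM, TRINITY_DN55643_c0_g1 35.2 TPM and MBF1c 13.3 TPM, with no overlap between neighbours. Under heat, TRINITY_DN55643_c0_g2 still led at 196 TPM, but TRINITY_DN55643_c0_g1 (86.3 to 157 TPM) and MBF1c (93.6 to 126 TPM) overlapped. A-2b came next in both groups, without overlap with its neighbours on either side. The 3 B-2c unigenes and TRINITY_DN50195_c2_g1 followed, at means of 6.81 to 8.34 TPM in heat leaves and 0.843 to 2.07 TPM in control leaves, and in both groups neighbours in that order overlapped.

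The heat libraries differed among themselves in a way that set these unigenes apart from each other. Against the mean of the control libraries, B-2c TRINITY_DN52050_c0_g5 was higher by 2.79, 1.38 and 2.21 on the log2 scale in heat replicates 1, 2 and 3. The family unigene was higher by 1.13, 2.07 and 2.62, and MBF1c by 3.17, 2.74 and 3.05. All 3 B-2c unigenes, A-2b and MBF1c had their largest change in heat replicate 1, whereas the family unigene and MBF1b TRINITY_DN55643_c0_g1 had theirs in heat replicate 3. The changes of MBF1b TRINITY_DN55643_c0_g2 were nearly equal, at 0.99, 0.95 and 1.06 in heat replicates 1 to 3. Of the 6549 tested unigenes with a log2 fold change over 1, 17.3% were highest in heat replicate 1, as B-2c and MBF1c were, and 60.6% were lowest there, as the family unigene was. Among chaperones and co-chaperones, 10 of 22 (45.5%) were highest in heat replicate 1 and 11 of 22 in heat replicate 3. Some were near ties, such as HSP70 TRINITY_DN63951_c0_g2 with 47.1 TPM in heat replicate 1 and 47.2 TPM in heat replicate 3. Such counts of the highest or lowest library are on TPM. They were not rerun after rescaling by the median ratio, which divides heat replicates 1 to 3 by 1.097, 1.016 and 1.19. The share highest in heat replicate 3 was 42.9% among the 6549 unigenes.

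To put this order on one scale, a quotient was formed of the change in heat replicate 1 over the average of those in the other two heat libraries. It was 1.56 for B-2c TRINITY_DN52050_c0_g5, larger than in 92.5% of the 6549 unigenes, and 0.480 for the family unigene, larger than in 29.6% of them. For MBF1c it was 1.09, above that of 77.8%. The levels in single heat libraries were known when these unigenes were chosen, and the numerator is heat replicate 1 alone. These quotients and their places among the 6549 are thus a description and not a test. The median was 0.710 over the 6549 unigenes, 1.15 over 22 chaperones and co-chaperones and 0.985 over 8 small heat shock proteins, so MBF1c lay between the medians of these lists. The other B-2c unigenes had quotients of 3.26 (TRINITY_DN68161_c2_g1) and 2.70 (TRINITY_DN67348_c1_g4), A-2b had 1.33, and the MBF1b unigenes had 0.644 and 0.986. After rescaling of the libraries by the median ratio, the order of the heat libraries of B-2c, the family unigene and MBF1c was the same, with 11.6, 4.08 and 6.85 rescaled TPM in heat replicates 1 to 3 for B-2c, 2.81, 6.75 and 8.81 for the family unigene, and 115, 92.2 and 97.7 for MBF1c.

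Transcripts named as potyvirus polyproteins also differed between the libraries. The 11 unigenes of that list summed to 606, 4409 and 3419.7 TPM in heat replicates 1 to 3, and to 0.0611, 0.0199 and 0 TPM in control replicates 1 to 3. Heat replicate 1 thus had the least of them among the heat libraries, while each heat library was above each control library. Among the heat libraries, B-2c and MBF1c were highest in replicate 1 and the family unigene was lowest there. Of the 6549 tested unigenes with a log2 fold change over 1, 60.6% were lowest there and 17.3% highest. Because the control libraries had almost none of these transcripts, heat and the virus transcripts cannot be told apart between the groups. Their part in the levels of the heat shock factors and MBF1c was not tested.

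**Figure D3:**
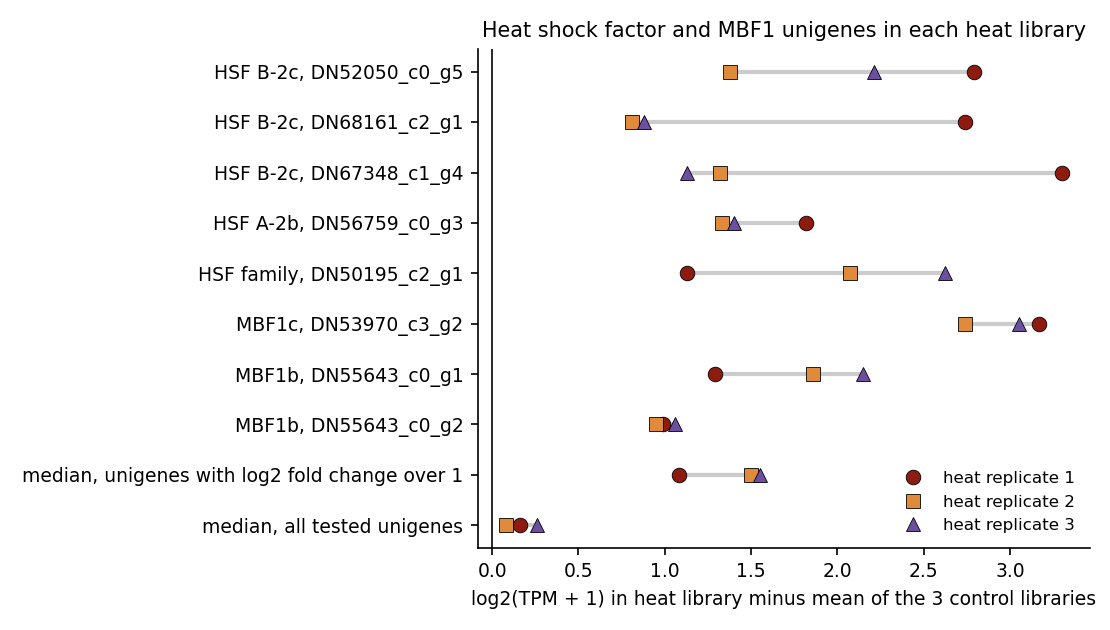
Log2(TPM + 1) in each heat library minus the mean of the 3 control libraries (horizontal axis) for the 8 heat shock factor and MBF1 unigenes, the median of the 6549 tested unigenes with a log2 fold change over 1, and the median of all tested unigenes. Markers stand for heat replicates 1 to 3, and replicate 1 lies farthest right for the 3 B-2c unigenes, A-2b and MBF1c and farthest left for TRINITY_DN50195_c2_g1 and MBF1b TRINITY_DN55643_c0_g1.

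The named unigenes with the most similar profile were sought among the 309, by the root mean square difference of log2(TPM + 1) minus its control mean over the 6 libraries. As these were picked as rises, likeness over 3 heat libraries is a description only. The added 1 TPM damps the changes of B-2c and the family unigene more than those of neighbours that are abundant in control leaves. Likeness on this scale is thus not likeness of the TPM ratios, and it was not rerun with a pseudocount of 0.1. Nearest to B-2c was GIGANTEA (TRINITY_DN71272_c0_g2), a circadian clock protein, at a difference of 0.15, with 59.3, 22.1 and 43.5 TPM in heat libraries and 8.35, 8.68 and 11.2 TPM in control libraries. The transcriptional corepressor LEUNIG (TRINITY_DN72101_c4_g4) and ABC transporter C family member 8 (TRINITY_DN74262_c2_g1) followed at 0.22 and 0.30. Like B-2c, all of these were lowest in heat replicate 2, but the ABC transporter was highest in heat replicate 3 and not in replicate 1. Among all tested unigenes, named or not, GIGANTEA, LEUNIG and the transporter ranked 2, 5 and 15 in nearness.

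Nearest to the family unigene were protein phosphatase 2C 3 (TRINITY_DN70806_c1_g1) at 0.20, MBF1b TRINITY_DN55643_c0_g1 at 0.23 and the trihelix transcription factor GT-3b (TRINITY_DN50527_c1_g1) at 0.23. Among all tested unigenes, named or not, these neighbours ranked only 27, 52 and 61 in nearness. The phosphatase had 29.7, 89.6 and 93.1 TPM in heat libraries and 18.6, 18.6 and 11.1 TPM in control libraries, and all of these were lowest in heat replicate 1 among the heat libraries. The nearest to MBF1c all bore the name ClpB1, the cytosolic disaggregase. These were TRINITY_DN71293_c3_g6 at 0.22, TRINITY_DN71293_c3_g7 at 0.30 and TRINITY_DN51508_c0_g1 at 0.33, ranking 2, 11 and 16 among all tested unigenes. The first had 42.6, 19.7 and 37.4 TPM in heat libraries and 4.19, 3.41 and 2.62 TPM in control libraries, and the first pair belong to one component and may share reads. The 2 heat shock factors differed from each other by 0.81, B-2c from MBF1c by 0.72, and the family unigene from MBF1c by 0.90. The named neighbours were picked for the smallest differences, so these values cannot be judged against theirs.

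**Figure D4:**
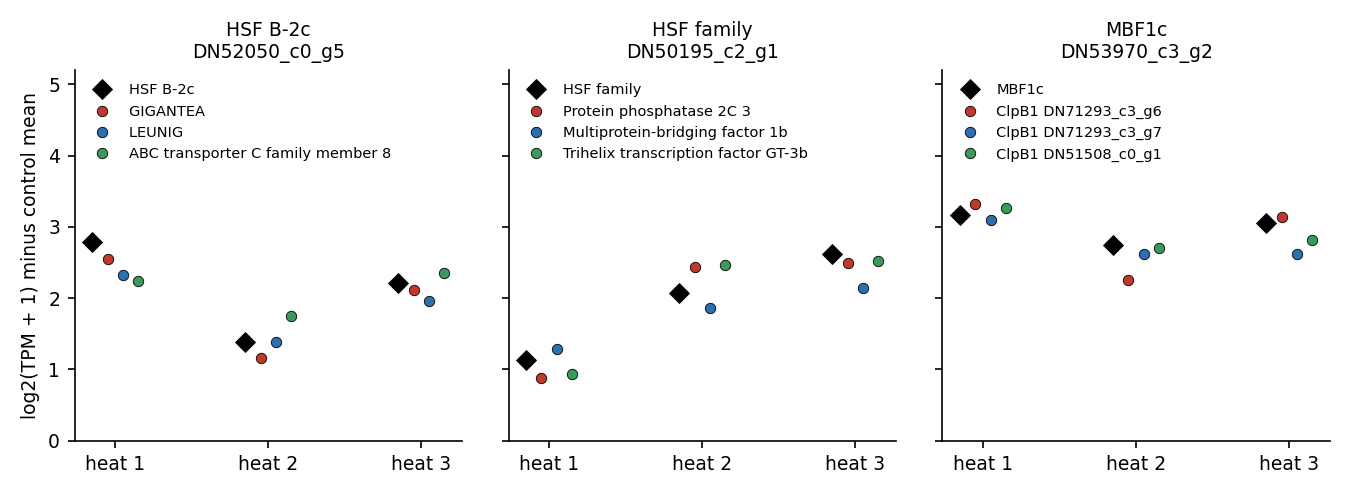
Log2(TPM + 1) minus the control mean (vertical axis) in heat replicates 1 to 3 for B-2c, the family unigene and MBF1c (diamonds), each with its 3 nearest named unigenes (circles). B-2c and GIGANTEA dip together in heat replicate 2, while the family unigene and its neighbours are lowest in heat replicate 1.

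Products known in other plants to be under heat shock factors were higher as well. All 8 small heat shock protein unigenes were called higher, with a median log2 fold change of 3.56, beside 6.0% called and a median of 0.17 over all unigenes tested. They too were picked by the study as rises on these libraries. The most abundant under heat was the class I TRINITY_DN64037_c2_g2, with 1129, 745 and 2688 TPM in heat libraries and 5.86, 7.16 and 5.10 TPM in control libraries. Next came the class I TRINITY_DN69742_c2_g1, with 454, 239 and 744 TPM in heat libraries and 11.4, 10.3 and 9.94 TPM in control libraries, and the class II TRINITY_DN53826_c0_g3, with 137, 104 and 99.2 TPM in heat libraries and 40.2, 47.9 and 30.8 TPM in control libraries. The first and second of these were highest in heat replicate 3, unlike B-2c and MBF1c. Of the 8, 5 were highest in heat replicate 3 and 2 in heat replicate 1. The shares were 42.9% and 17.3% among the 6549 tested unigenes with a log2 fold change over 1.

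Of 22 chaperone and co-chaperone unigenes, picked in the same way, 20 were called higher and 0 lower, with a median log2 fold change of 1.79. All 7 ClpB unigenes and all 3 DnaJ unigenes were called, with 5 of 6 HSP70, 3 of 4 chaperonin and 2 of 2 co-chaperone unigenes. The most abundant under heat was the HSP70 TRINITY_DN50507_c2_g4, with 250, 184 and 236 TPM in heat libraries and 81.5, 84.7 and 73.3 TPM in control libraries. The chloroplast chaperonin 60 beta TRINITY_DN64853_c0_g1 had 216, 162 and 213 TPM in heat libraries and 77.3, 64.4 and 79.0 TPM in control libraries. The DnaJ TRINITY_DN47353_c0_g1 had 205, 88.1 and 178 TPM in heat libraries and 66.0, 57.7 and 56.6 TPM in control libraries. As with B-2c and MBF1c, these 3 were lowest in heat replicate 2, the library with the lowest level for 18 of the 22. Of the 6549 tested unigenes with a log2 fold change over 1, 23.2% were lowest in that library.

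The DnaJ call (log2 fold change 1.28, limma adjusted p = 0.0312) was lost without any one of control replicates 1 to 3 (0.0766, 0.0912 and 0.0987), heat replicate 1 (0.0528) or heat replicate 3 (0.114), and with no filter on low values (0.0707). The HSP70 TRINITY_DN67133_c0_g1 had 24.5, 10.4 and 12.6 TPM in heat libraries and 9.40, 9.23 and 4.77 TPM in control libraries, and did not pass (log2 fold change 0.89, limma adjusted p = 0.136). The cytosolic chaperonin subunit theta, TRINITY_DN75516_c2_g1, had 12.5, 13.0 and 15.2 TPM in heat libraries and 6.35, 5.68 and 7.13 TPM in control libraries, and its log2 fold change of 0.98 was under the fold threshold (limma adjusted p = 0.0285). The log2 fold changes of B-2c (2.13), the family unigene (1.94) and MBF1c (2.99) lay within the range of the chaperones, 0.89 to 4.37, and of the small heat shock proteins, 1.50 to 7.55.

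**Figure D5:**
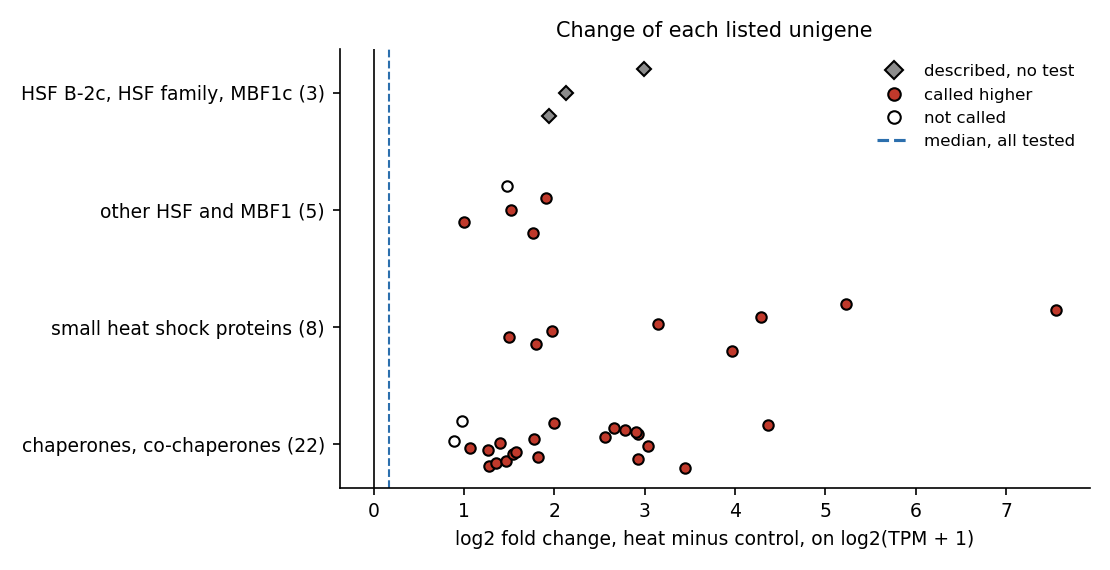
Log2 fold change of heat against control on log2(TPM + 1) (horizontal axis) for B-2c, the family unigene and MBF1c (grey diamonds, described without a test), 5 other heat shock factor and MBF1 unigenes, 8 small heat shock proteins and 22 chaperones and co-chaperones. Filled circles were called higher and open circles were not, and the dashed line is the median of all tested unigenes, 0.17.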

How the data were processed

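RNA-seq values of 6 P. ternata leaf libraries were used. The authors made strand-specific libraries, assembled the filtered reads de novo with Trinity, quantified unigenes with Salmon and deposited TPM values. Each library sums to the same total, so the reads behind a value cannot be read from it (the study states read totals per library, which were not used here), and a rise of some transcripts lowers the share of others. The values of their DESeq comparison and the miRNA table were not used here. The names at hand came from unigenes that the study had picked as higher, so its comparison set which unigenes could be listed.

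Of 208217 unigenes (755 at 0 throughout), 68978 had a mean of at least 1 TPM and entered a two-sided limma fit (version 3.58.1, R 4.3.3, eBayes with trend) on log2(TPM + 1), checked on simulated data. Calls required a log2 fold change over 1 in either direction at p under 0.05 after Benjamini-Hochberg adjustment. P-values measure the spread between 3 libraries a group, which the study calls biological replicates.

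Members and lists were chosen with earlier results of these data known. Named are the 3 unigenes, their components, the 5 other family unigenes, the 3 most abundant small heat shock proteins and chaperones with all not called, and the 3 nearest profiles.

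Alternatives tried were median ratio or quantile scaling, robust eBayes, a pseudocount of 0.1, a filter of 5 TPM in the higher group or none, no fold threshold, component sums, likeness by the largest difference, leaving out each library, and a replicate block.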

Additional observations from a re-analysis of the deposited data

How the results depend on the processing

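B-2c, the family unigene and MBF1c were higher under heat in all alternatives run. Leaving out 1 library, their log2 fold changes ranged over 1.79 to 2.50, 1.60 to 2.35 and 2.83 to 3.11. A pseudocount of 0.1 gave the family unigene 2.72, and, in single heat libraries, B-2c 3.58 (replicate 1) and 2.95 (replicate 3) and the family unigene 2.90 (replicate 2) and 3.50 (replicate 3). Median ratio rescaling gave 2.73 for MBF1c in heat replicate 3. The component sum gave B-2c 1.33. By the largest difference in any library, TRINITY_DN71293_c3_g7 was nearest to MBF1c (0.43). TRINITY_DN52050_c0_g3 turned to -0.10 (median ratio), -0.11 (quantile) and, without heat replicate 3, -0.09, within -0.09 to 0.25 over the libraries left out.

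Over all unigenes, 4142 were higher and 2793 lower. Median ratio rescaling, which moves the median log2 fold change of all unigenes to 0.010 (main 0.167), gave 2928 higher and 3906 lower, and quantile normalization 2976 and 3590. Without a filter the counts were 2207 and 1715, and with a minimum of 5 TPM in the higher group 2634 were higher. Leaving out 1 library gave 1468 to 6303 higher and 1336 to 3751 lower, 2 to 4 of the 5 other heat shock factor and MBF1 unigenes, 1 to 2 component companions, 7 to 8 small heat shock proteins and 14 to 20 chaperones. Of the 5, 2 were called under median ratio rescaling, quantile normalization and no filter. Over 39 single unigenes, 493 alternative values had the same direction and call, 43 lost the call, 4 gained it and 3 turned sign.

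Replicate numbers were not treated as pairs in the main fit. Deviations of same-numbered libraries correlated at -0.135, -0.056 and 0.145 across unigenes, within the -0.156 to 0.253 of libraries with different numbers. With 3 libraries a group, such correlations cannot exclude pairing. With the replicate block, 3296 were higher and 2479 lower, and 3 of the 5 other family unigenes were called.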
